A study of Mus musculus with 6 samples.

Results

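Igf1, which encodes insulin-like growth factor I, and the 7 genes Igfbp1 to Igfbp7, which encode the IGF binding proteins, were followed in pancreatic islets. The 8 genes were taken by symbol from a table of 54532 genes, and each symbol occurred in it once. The mice were 7 weeks old, and poly-A RNA was sequenced from 3 samples in each of 2 groups, each sample a pool of islets from 3 mice. Controls were Wtap flox/flox, and the other group was labelled Wtap-βKO, a name for loss of the gene in β cells. WTAP belongs to the enzyme complex that methylates adenosines of mRNA to N6-methyladenosine (m6A), and the study asked what it does for β-cell function. The promoter that drives the recombinase, the exons removed and the sex of the mice are not given in the sources used here, nor is whether the controls carried a recombinase.

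IGF-I is a secreted growth factor that acts through the type 1 IGF receptor, IGF1R, a tyrosine kinase related to the insulin receptor. IGF binding proteins are secreted too. The first 6 hold IGFs with high affinity, lengthen their life in fluid and keep them from the receptor until a protease cuts the binding protein. IGFBP7 shares the amino-terminal domain of the family but binds IGFs weakly, and it is known as a protein of vessel walls and matrix.

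Values are FPKM, the fragments assigned to a gene per kilobase of its length, scaled by a library size. Genes can therefore be compared per length. Each value went back to whole reads, 16353297 to 18682745 per sample. The size used in the scaling differed from this read total. Its ratio to the total was 0.988, 0.966 and 0.952 in the controls and 1.07, 1.04 and 1.04 in the other group. Median-of-ratios size factors, a common scaling between libraries, were the same for the FPKM values of all 6 libraries. The deposited values were thus already level by that measure, and not by total reads. Wtap itself stood at 10.5, 11.4 and 11.6 FPKM in the 3 controls. It stood at 11.2, 11.9 and 12.3 FPKM in the other group, and the log2 difference was 0.07 (SE 0.06, limma adjusted p = 0.475). The targeted transcript was therefore not lower in the samples labelled Wtap-βKO. A whole-gene value does not show whether single exons were lost, so the group is called by its label throughout. Of 15927 genes with a mean of at least 0.5 FPKM, 1397 were called higher (8.77%) and 1798 lower (11.3%) in the libraries labelled Wtap-βKO, at a limma adjusted p under 0.05. Higher calls were 43.7% of all calls, and 53.8% or 68.1% of them after rescaling without the 50 highest genes or to total reads.

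Promoters are printed for Igfbp4 and Igfbp7, the binding protein genes that passed the test. Each is the 250 bases before the start site, 5′ to 3′ on the gene's strand, from RefSeq on GRCm38.p6. Igfbp4 is at chr11:99040994-99041243 on the plus strand, and Igfbp7 is at chr5:77408046-77408295 on the minus strand. Capitals mark a TATA box (TATAAA) or a GC box (GGGCGG, or CCGCCC where it lies on the other strand), both searched on both strands.
Igfbp4: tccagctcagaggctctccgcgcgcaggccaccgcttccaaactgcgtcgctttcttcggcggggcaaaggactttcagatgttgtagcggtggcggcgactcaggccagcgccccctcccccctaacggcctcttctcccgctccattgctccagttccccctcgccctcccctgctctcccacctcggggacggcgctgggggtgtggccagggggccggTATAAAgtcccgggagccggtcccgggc
Igfbp7: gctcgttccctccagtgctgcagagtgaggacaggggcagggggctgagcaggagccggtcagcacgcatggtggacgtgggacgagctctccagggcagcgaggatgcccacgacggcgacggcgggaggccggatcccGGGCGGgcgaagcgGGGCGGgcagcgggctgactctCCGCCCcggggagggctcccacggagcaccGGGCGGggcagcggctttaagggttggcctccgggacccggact
The Igfbp4 window held 1 TATA box, which began at position -28 from the start site, and no GC box. The Igfbp7 window held 4 GC boxes and no TATA box. Of 32851 promoters of the same length, 12.4% held TATAAA and 32.7% held GGGCGG. Both windows were rich in CG dinucleotides, with 22 in Igfbp4 and 26 in Igfbp7 against a median of 6 over all promoters. Igfbp3, a binding protein gene that missed the test, had 32. A match of letters is a description and does not show a bound site.

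The letters GGACT are the commonest form of the sequence in which the WTAP complex methylates the central adenosine. They were counted on the sense strand in the longest-coding transcript of each gene, in GENCODE M21. These 21-base windows, GGACT in capitals, are from the 4 binding protein genes with enough RNA to test. The sites of Igfbp7, Igfbp4 and Igfbp5 shown are in the coding sequence, and that of Igfbp3 is in the 3′ UTR.
Igfbp7: gtgcagccGGACTgctgctcc
Igfbp4: ggggagctGGACTgccaccag
Igfbp5: gtggatggGGACTttcagtgc
Igfbp3: gcagcatcGGACTccacgttc
Igfbp7 and Igfbp3 had 1 site each, 0.833 and 0.413 per kilobase. Igfbp4 had 6 sites, 1.57 per kilobase, of which 5 lay in the 3′ UTR, and Igfbp5 had 7, 1.17 per kilobase. Over 21901 transcripts the median was 1.02 per kilobase, with quartiles of 0.554 and 1.52. Methylation itself was not measured in these samples.

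Igfbp7 and Igfbp4 were higher in the libraries labelled Wtap-βKO, by 1.40-fold and 1.70-fold. Igfbp3 and Igfbp5 did not pass the test. Their groups did not overlap, but 19.1% of all tested genes lay wholly higher and 22.1% wholly lower. Igf1, Igfbp6, Igfbp2 and Igfbp1 fell under the filter on low values, so 4 of the 8 genes were tested, 2 were called higher and none lower by limma. Before adjustment Igfbp5 alone passed on the lower side. Of all 15927 tested genes, 5556 had an unadjusted limma p under 0.05, in either direction. Over all tested genes 8.77% were called higher.

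Igf1, the ligand, was read only rarely. It lies on GRCm38 at chr10:87858265-87937042 and had 11, 9 and 18 reads in the controls. The libraries labelled Wtap-βKO had 55, 26 and 30 reads. In FPKM these were 0.0634, 0.0575 and 0.102 against 0.295, 0.147 and 0.176. Every control lay below every library labelled Wtap-βKO, and the highest value came from replicate 1. Among tested genes, which do not include Igf1, 19.1% lay wholly higher. Mean FPKM went from 0.0744 ± 0.0243 to 0.206 ± 0.0784 (SD, n = 3 each), a ratio of 2.77. With the filter dropped, log2(FPKM + 1) differed by 0.16 and limma gave an adjusted p of 0.165. An added limma-voom fit on reads, open to genes with at least 10 reads in all, gave a log2 difference of 1.41 (SE 0.44, adjusted p = 0.0312). In that fit 8.78% of 21994 genes were called higher. The call did not hold when single libraries were left out, except without replicate 2 or 3 of the libraries labelled Wtap-βKO (adjusted p = 0.00778 and 0.0464). Across the leave-one-out fits adjusted p reached 0.113. Igf1 overlaps the annotated antisense gene Igf1os, and the protocol does not mark strand.

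Igfbp7 was the most abundant of the 8 genes in all 6 libraries. It is ENSMUSG00000036256, at chr5:77349240-77408041 on GRCm38. Its levels were 267, 246 and 256 FPKM in the controls and 335, 378 and 364 FPKM in the libraries labelled Wtap-βKO. Every library of the second group lay above every control. Group means were 257 ± 10.8 and 359 ± 21.8 FPKM (SD, n = 3), with a log2 difference of 0.48 (SE 0.07, limma adjusted p = 0.00526). Polr2b overlaps the end of Igfbp7 by 85 bases on the other strand. It stood at 21.1 to 23.3 FPKM in the controls and at 18.5 to 19.4 FPKM in the other group. Gm34648, an antisense gene, shares 7085 bases with the span of Igfbp7. It stood at 0.187 to 0.675 FPKM in the controls and at 0 to 0.515 FPKM in the other group. The part of overlapping reads in the Igfbp7 values was not tested.

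Igfbp4 encodes a binding protein that is cut by the protease PAPP-A. It is ENSMUSG00000017493, at chr11:99041244-99054392. Its levels were 3.98, 2.65 and 2.65 FPKM in the controls and 5.38, 4.90 and 5.50 FPKM in the libraries labelled Wtap-βKO. The groups did not overlap, and control replicate 1 stood apart from the other two. Group means were 3.09 ± 0.768 and 5.26 ± 0.321 FPKM (SD, n = 3), and the log2 difference was 0.63 (SE 0.13, limma adjusted p = 0.0189). The call was lost without control replicate 2 or 3, or without replicate 1 or 3 of the libraries labelled Wtap-βKO, with limma adjusted p of 0.0657, 0.0637, 0.0611 and 0.0662.

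Igfbp3 encodes the main IGF carrier of blood, and its gene is ENSMUSG00000020427, at chr11:7206086-7213923. Its levels were 41.1, 42.4 and 42.0 FPKM in the controls and 42.8, 43.3 and 49.7 FPKM in the libraries labelled Wtap-βKO. The groups touched closely without overlapping, and replicate 3 of the second group lay above all others. Means were 41.8 ± 0.669 and 45.3 ± 3.82 FPKM (SD, n = 3). The log2 difference was 0.11 (SE 0.07, limma adjusted p = 0.308).

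Igfbp5, a binding protein that also attaches to matrix, pointed the other way. Its gene is ENSMUSG00000026185, at chr1:72857932-72874884. Its levels were 4.64, 5.37 and 3.99 FPKM in the controls and 3.75, 2.67 and 3.94 FPKM in the libraries labelled Wtap-βKO. The groups were separated only by the gap between 3.99 and 3.94. Means were 4.66 ± 0.690 and 3.45 ± 0.686 FPKM (SD, n = 3), a log2 difference of -0.35 (SE 0.14, limma adjusted p = 0.129, 0.0429 before adjustment). The limma-voom fit on reads called it lower at -0.44 (adjusted p = 0.0468). Groups that do not overlap were common: 19.1% of tested genes lay wholly higher and 22.1% wholly lower.

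**Figure D1:**
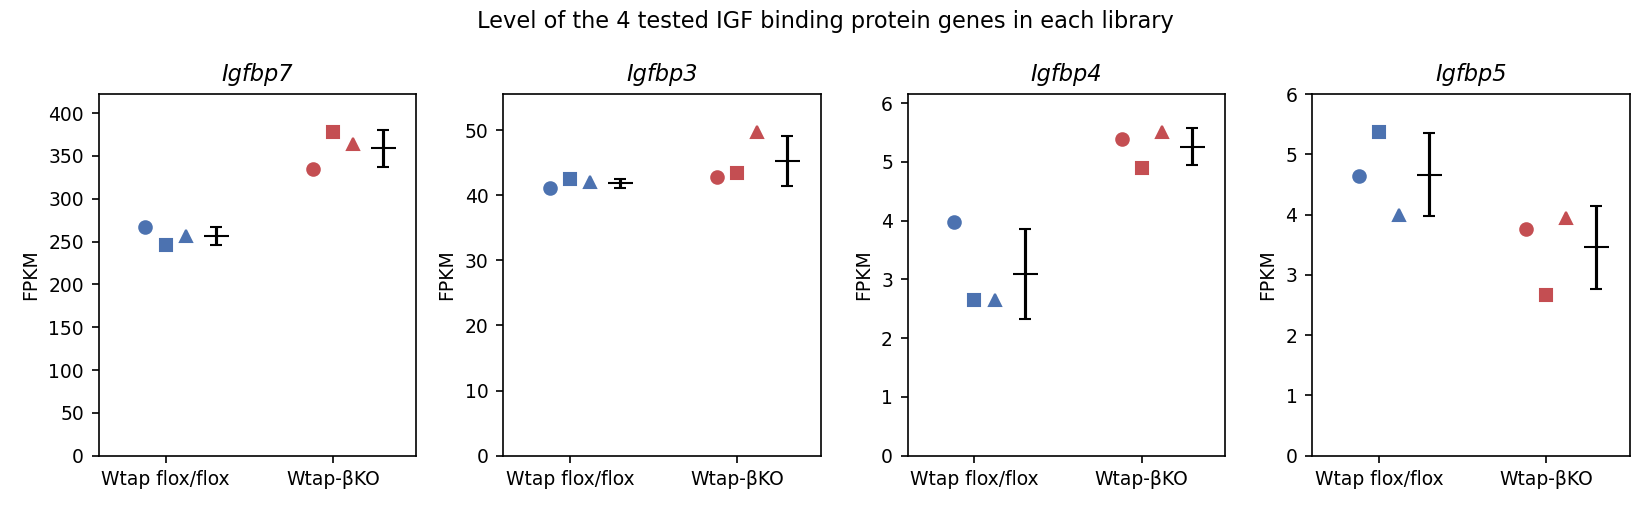
FPKM (vertical axes, each from 0) of the 4 tested binding protein genes in Wtap flox/flox and Wtap-βKO libraries. Circle, square and triangle are replicates 1, 2 and 3, and the bar beside them is the mean ± SD (n = 3). Igfbp7 runs from 246 to 267 FPKM in the controls and from 335 to 378 FPKM in the other group.

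The last 3 binding protein genes gave too few reads for a comparison. Igfbp6, which prefers IGF-II, had 1, 6 and 4 reads in the controls and 3, 5 and 8 in the libraries labelled Wtap-βKO. Igfbp2 had 3 reads in each group. Igfbp1, a liver gene under insulin's control, had none in the controls and 3 in the other group. No reads in the 3 controls allowed a level of up to 0.0385 FPKM, counting error only, so no fold is given. Igfbp2 lies 5457 bases from Igfbp5, and Igfbp1 lies 3539 bases from Igfbp3, each pair tail to tail, so in both pairs a hardly read gene is the neighbour of a clearly read one.

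**Figure D2:**
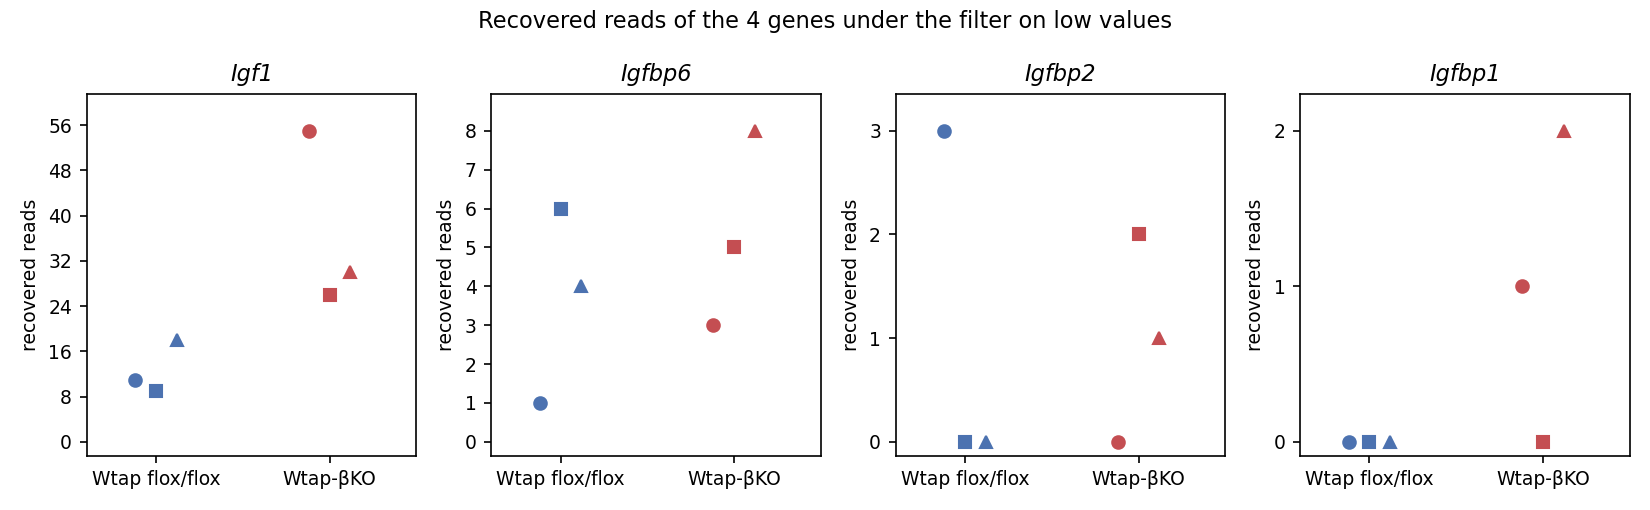
Recovered reads (vertical axes) of the 4 genes under the filter, by library. Circle, square and triangle are replicates 1, 2 and 3. Igf1 has 9 to 18 reads in the controls and 26 to 55 in the libraries labelled Wtap-βKO, while the 3 binding protein genes have 8 reads or fewer in every library.

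The order of the binding protein genes changed between the groups at one place. Igfbp7 stood above Igfbp3, and Igfbp3 above the rest, in all 6 libraries. Igfbp5 exceeded Igfbp4 in the 3 controls, where the ratio of Igfbp4 to Igfbp5 was 0.858, 0.494 and 0.664. In the libraries labelled Wtap-βKO the ratio was 1.43, 1.83 and 1.40, so Igfbp4 was the higher. The control with the ratio nearest to 1 was replicate 1, with 3.98 FPKM of Igfbp4 and 4.64 FPKM of Igfbp5. Between control libraries, the highest Igfbp4 value (3.98 FPKM, replicate 1) came close to the lowest Igfbp5 value (3.99 FPKM, replicate 3). That gap was far smaller than the SD of either gene. Igfbp6, Igfbp2 and Igfbp1 could not be ordered at these counts.

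The summed FPKM of the 7 binding protein genes was 317, 297 and 305 in the controls and 387, 429 and 424 in the libraries labelled Wtap-βKO. Igfbp7 made up 84.3, 82.9 and 84.0% of it in the controls and 86.5, 88.1 and 85.9% in the other group. Igfbp7 and Igfbp3 together made up 97.2 to 98.2% in every library.

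Among receptors, Igf1r was lower in the libraries labelled Wtap-βKO. Its levels were 9.14, 8.07 and 7.91 FPKM in the controls and 4.88, 4.74 and 4.92 FPKM in the other group. The groups lay far apart, at 8.37 ± 0.670 and 4.85 ± 0.0945 FPKM (SD, n = 3), with a log2 difference of -0.68 (SE 0.07, limma adjusted p = 0.00168). Of 6 listed ligand and receptor genes 5 were tested, none was called higher and Igf1r alone was called lower. Among all tested genes 8.77% were called higher and 11.3% lower. The median log2 fold change of the list was -0.05 against -0.01 over all tested genes. Insrr, the insulin receptor-related receptor, was at 142 ± 13.3 and 111 ± 13.3 FPKM (SD, n = 3) and missed the test (limma adjusted p = 0.0576). Without replicate 2 of the libraries labelled Wtap-βKO it passed (0.0401). Insr, the insulin receptor, was at 7.08 and 7.44 FPKM (limma adjusted p = 0.588), and Igfals, the third partner of the circulating IGF complex, at 26.4 and 27.9 FPKM (0.633). Igf2, the other ligand, was at 0.0553 FPKM or less in the controls and at 0.111 to 0.205 FPKM in the other group, under the filter.

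Proteases that cut the binding proteins, with inhibitors of those proteases, were listed as 14 genes, of which 8 were tested, 2 were called higher and 1 lower. Their median log2 fold change was 0.27, and among all tested genes 8.77% were called higher and 11.3% lower. Pappa2, whose product cuts IGFBP3 and IGFBP5, stood at 45.1, 39.6 and 45.3 FPKM in the controls and at 98.3, 48.7 and 110 FPKM in the libraries labelled Wtap-βKO. Replicate 2 of the latter lay close to the controls. The log2 fold change was 0.89 (SE 0.28, limma adjusted p = 0.0688), and it was 1.25 (adjusted p = 0.00110) without that library. With any other single library left out it was 0.67 to 0.92 and missed the test (limma adjusted p = 0.141 to 0.176). Htra1, a serine protease, rose from 0.820 to 1.78 FPKM (0.61, limma adjusted p = 0.0117). Adam9, a membrane metalloprotease, fell from 22.1 to 14.4 FPKM (-0.58, limma adjusted p = 0.00463). Ctsd, the lysosomal protease cathepsin D, was at 62.8 and 75.5 FPKM (limma adjusted p = 0.123). The other called gene, Mmp2, a matrix metalloprotease named after its values were seen, had a limma adjusted p of 0.0494 that was lost without any single library except replicate 2 of the libraries labelled Wtap-βKO.

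Secreted proteins that carry an IGFBP-type domain were listed as 13 genes, of which 8 were tested, 3 were called higher and none lower. The shares among all tested genes were 8.77% higher and 11.3% lower. The list had a median log2 fold change of 0.15. Ctgf (Ccn2), a matrix-associated growth regulator, rose from 3.41 ± 0.273 to 5.66 ± 0.375 FPKM (SD, n = 3; 0.59, limma adjusted p = 0.00399). Nov (Ccn3), of the same family, rose from 0.751 to 1.63 FPKM (0.59, limma adjusted p = 0.0188), a call lost without control replicate 2 or replicate 3 of the libraries labelled Wtap-βKO (0.0607 and 0.0634). Htra1 was the third, since it carries the domain too. Crim1 was at 2.38 and 2.85 FPKM (limma adjusted p = 0.183).

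Downstream of the receptor, 17 of 18 listed signalling genes were tested, 1 was called higher and 7 lower, with a median log2 fold change of -0.25. Over all tested genes 8.77% were called higher and 11.3% lower, with a median of -0.01. Shc1, an adaptor of the receptor, fell from 36.7 to 25.9 FPKM (-0.49, limma adjusted p = 0.00160). Pdpk1, the kinase that activates Akt, fell from 15.4 to 10.3 FPKM (-0.53, limma adjusted p = 0.00386). Akt1 fell from 44.5 to 32.6 FPKM (-0.44, limma adjusted p = 0.00601). The 1 gene called higher was Irs2, an insulin and IGF receptor substrate, named after its values were seen. It stood at 16.6, 14.9 and 14.8 FPKM in the controls and at 33.2, 20.4 and 34.1 FPKM in the libraries labelled Wtap-βKO (0.85, limma adjusted p = 0.0210). Its call was lost when any library but replicate 2 of the latter was left out, with adjusted p of 0.0532 to 0.0716. Irs1, the companion substrate and likewise named after its values were seen, was called lower, from 1.97 to 1.18 FPKM (limma adjusted p = 0.0297). That call was lost when any library but control replicate 3 was left out, with adjusted p of 0.0547 to 0.0941.

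**Figure D3:**
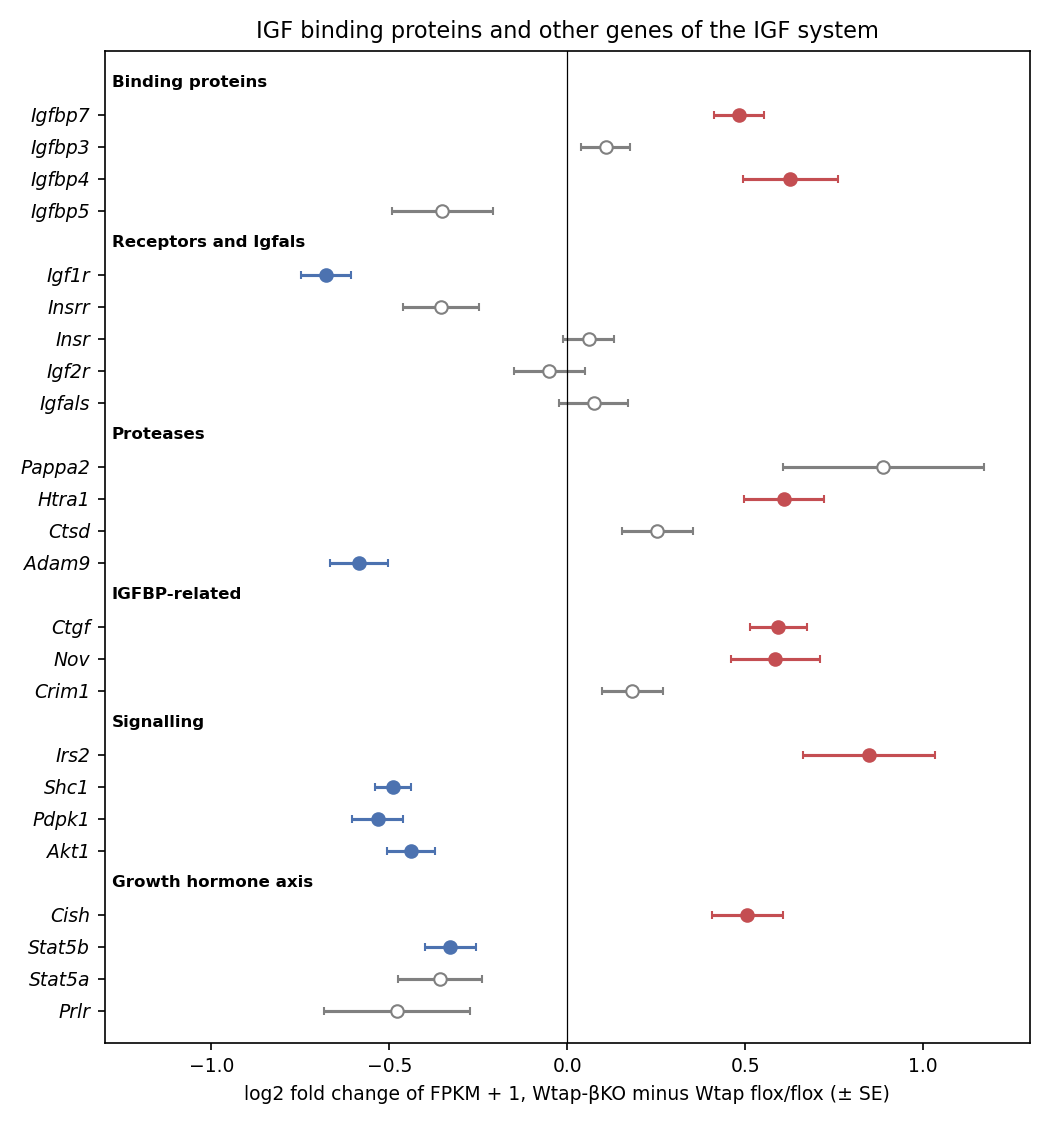
Log2 fold change of log2(FPKM + 1), Wtap-βKO minus Wtap flox/flox (horizontal axis), with its SE. Shown are the tested binding protein genes and most genes named from the IGF lists, with Igf2r. Irs1 (called lower), Mmp2 (called higher) and Igf2bp2 (not called) are not drawn. Filled points passed the limma test at an adjusted p under 0.05 and open grey points did not. Igfbp7 lies at 0.48 and Igfbp4 at 0.63 on the higher side, and Igf1r at -0.68 on the lower side.

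In the growth hormone axis, which drives Igf1 in liver, 9 of 9 genes were tested, 1 was called higher and 1 lower. Among all tested genes the shares were 8.77% and 11.3%. The median log2 fold change of the list was -0.12. Cish, a feedback inhibitor of cytokine receptors, rose from 4.11 to 6.28 FPKM (0.51, limma adjusted p = 0.0151), a call lost without control replicate 1 or 3 (0.0567 and 0.0540). Stat5b, a transcription factor downstream of the growth hormone receptor, fell from 22.9 to 18.0 FPKM (-0.33, limma adjusted p = 0.0197). That call was lost without control replicate 1 or 2, or without replicate 1 or 3 of the libraries labelled Wtap-βKO (0.0555 to 0.0695). Stat5a (2.93 and 2.08 FPKM, limma adjusted p = 0.0766) and Prlr, the prolactin receptor (28.3 and 20.4 FPKM, 0.148), missed the test. Among fits with 1 library left out, Stat5a passed it only without replicate 2 of the libraries labelled Wtap-βKO (0.0400). Of the 3 Igf2bp genes, which encode RNA-binding proteins that read m6A and are not IGF binding proteins, only Igf2bp2 was tested, at 2.59 and 2.27 FPKM (limma adjusted p = 0.416).

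Several of these genes, among them Insrr, Ctsd, Pappa2, Htra1, Ctgf, Akt1, Pdpk1, Cish, Stat5a, Prlr, Irs2 and Crim1, overlap another annotated gene, and unstranded reads in the overlap cannot be assigned with certainty.

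Likeness of pattern was measured as the root mean square difference of log2(FPKM + 1) over the 6 libraries, each gene centred on its own mean, against 7333 genes. Near to Igfbp4 were Pls3 (0.0761), an actin-bundling protein, and Gfra3 (0.0970), a receptor of the GDNF family. Gfra3 stood at 5.73, 4.13 and 4.77 FPKM in the controls and at 7.08, 7.49 and 8.30 FPKM in the libraries labelled Wtap-βKO. It shared with Igfbp4 the highest control value in replicate 1. Nearest to Igfbp7 were AI467606 (0.0283), Elof1 (0.0343), a transcription elongation factor, and Setdb1 (0.0363), a histone methyltransferase. Nearest to Igf1 were Selenoi (0.0187), Gorab (0.0192) and Zfand2a (0.0198), which for so low a gene means little more than a small spread. The 6 libraries share their 2 groups, so any gene that differs between them tends to lie near another.

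Islet RNA comes from several cell types, and in bulk samples fewer cells of a type and less RNA per cell cannot be told apart. The summed FPKM of 10 β-cell markers was 135142 to 155400 in the controls and 81970 to 92558 in the libraries labelled Wtap-βKO. Of these markers, 8 of 10 were called lower. Ins2, Ins1 and Iapp made up most of these sums. Of them Ins1 was called (limma adjusted p = 0.00869), and Ins2 (0.190) and Iapp (0.935) were not. Ins2 averaged 89397 FPKM in the controls and 56847 FPKM in the libraries labelled Wtap-βKO. The result of these genes depended on the fit. Ins2 was called lower in 5 of 19 alternative fits, and the Ins1 call was lost in 2 of 19. For 6 α-cell markers the sums were 20202 to 24293 and 31680 to 42107, with 3 of 6 called higher. Gcg made up nearly all of these sums and was itself not called (limma adjusted p = 0.0890). It averaged 22504 and 36405 FPKM and was called higher in 8 of 19 alternative fits. For 6 markers of δ and PP cells the sums were 15582 to 17463 and 18470 to 34652, with 3 called higher. The upper end came from replicate 2 of the libraries labelled Wtap-βKO, where Ppy stood at 19590 FPKM. Ratios of mean sums were 0.591 for the β, 1.62 for the α and 1.48 for the δ and PP list. Shares over all tested genes were 8.77% called higher and 11.3% called lower.

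Igfbp7 is known in endothelial and mesenchymal cells, and those markers were present in all libraries. The 14 mesenchymal markers summed to 58.7 to 70.5 FPKM in the controls and 86.5 to 98.5 FPKM in the libraries labelled Wtap-βKO, a ratio of means of 1.39, and 7 of 13 tested were called higher. The 10 endothelial markers summed to 171 to 205 and 201 to 227 FPKM, a ratio of 1.14, with 1 of 10 called higher. Macrophage markers, from cells known to make Igf1, summed to 100.1 to 110 and 118 to 132 FPKM, with 1 of 7 tested called higher. Ductal markers summed to 55.0 to 63.3 and 68.4 to 98.9 FPKM, acinar to 98.9 to 174 and 172 to 241, and erythroid to 29.9 to 34.2 and 44.9 to 53.8, each with 1 gene called higher. Lymphocyte and plasma cell markers, 8.44 to 10.9 and 8.62 to 8.75 FPKM, had 1 called each way, and glial markers, 5.43 to 7.10 and 6.61 to 8.34 FPKM, had none. Beside these counts, 8.77% of all tested genes were called higher and 11.3% lower. Some marker calls were lost in fits with 1 library left out. Egfl7 (endothelial) and Abcc9 (mesenchymal) lost theirs in all 6 such fits. Lum (mesenchymal), Irx2 (α) and Ghsr (δ and PP) lost theirs in 5. For Rgs5 (mesenchymal), Sst (δ and PP) and Ctrb1 (acinar) it was 4. The other markers called higher kept their calls in all 6. The most abundant markers of a list weigh most in its sum. The largest of the mesenchymal list was Rgs5, with means of 34.1 and 41.6 FPKM, a ratio of 1.22. No list had a marker at 0 in every library. The part of cell makeup in the values of Igfbp7, Igfbp4 and Igf1 was not tested.

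**Figure D4:**
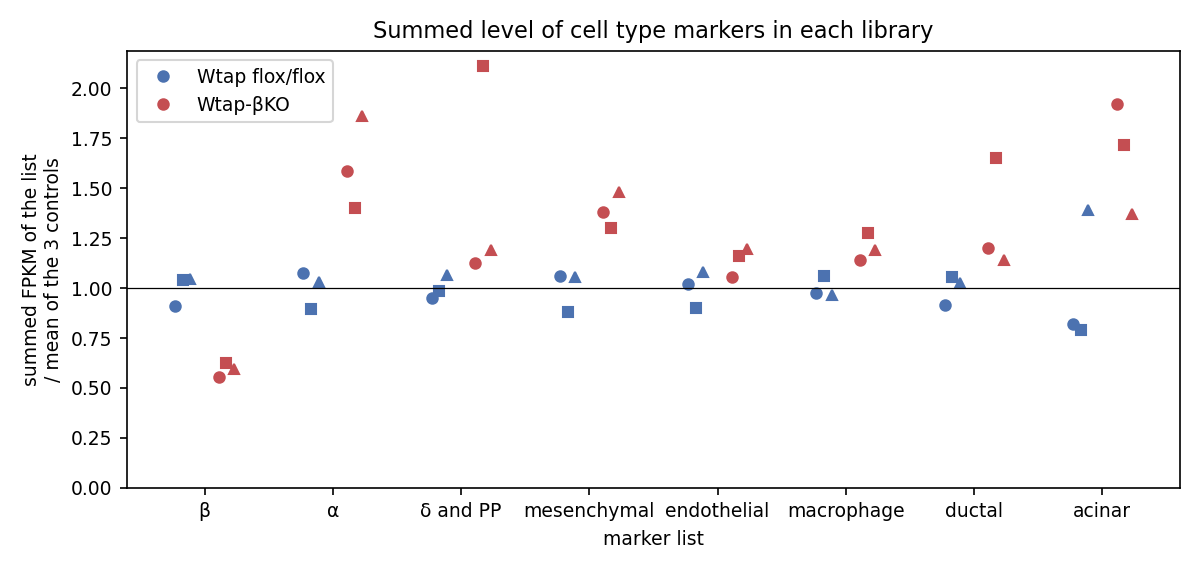
Summed FPKM of 8 of the marker lists in each library, divided by the mean sum of the 3 controls (vertical axis, linear from 0), for Wtap flox/flox (blue) and Wtap-βKO (red). Circle, square and triangle are replicates 1, 2 and 3. The β-cell sum is lower in all 3 libraries labelled Wtap-βKO than in every control. The α-cell, δ and PP, mesenchymal, macrophage and ductal sums are higher in all 3 than in every control. The endothelial and acinar sums overlap between the groups. The β-cell sum is mostly Ins2, Ins1 and Iapp, and the α-cell sum is nearly all Gcg.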

How the data were processed

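The authors deposited 1 table of FPKM values, with gene lengths per the file headers, for 3 Wtap flox/flox and 3 Wtap-βKO islet samples. HISAT2 2.0.5 and featureCounts 1.5.0-p3, beside CASAVA and DESeq2 1.20.0, are named per the submitters' processing notes, without roles, with the builds GRCm38 and mm10. Samples of a group are independent biological replicates per the labels.

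In each library, FPKM times gene length was divided by its smallest step, taken as 1 read, and came out whole for 100.0% of values above 0 (tolerance 0.01 read). These reads were used for depth and for the limma-voom fits. The deposited scaling was kept. The main test was limma 3.58.1 in R 4.3.3 with a variance trend, two-sided, on log2(FPKM + 1), for genes with a mean of at least 0.5 FPKM. Adjustment was by Benjamini-Hochberg over all 15927 genes, with a threshold of 0.05. Folds on that scale understate changes of low genes. The script was tested on simulated data.

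The genes and lists were chosen with earlier results of these data known. The text names the 8 genes, up to 4 genes of each of 6 IGF lists (lowest adjusted p, mean of at least 1 FPKM), and 3 genes nearest in pattern. Genes given outside the rule were Igf2, Igf2r, Irs1, Irs2 and Mmp2, beside Wtap, Polr2b, Gm34648 and the markers Ins1, Ins2, Iapp, Gcg and Ppy. The markers Egfl7, Abcc9, Lum, Irx2, Ghsr, Rgs5, Sst and Ctrb1 were named for their weight or their lost calls. 2 genes that this rule names are not reported here. 11 marker lists are given as sums. The alternatives were other scalings, pseudocounts (0.1, 0.5), filters, limma-voom, a replicate block and leaving out each library. A floor of 3 reads covers counting error only.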

Additional observations from a re-analysis of the deposited data

How the results depend on the processing

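Igfbp7 was called higher under all 19 alternatives, with log2 fold changes of 0.44 to 0.60 and limma adjusted p of 3.0e-05 to 0.0308, and Igf1r was called lower under all 19. Median-of-ratios scaling, 1 of these alternatives and 1 of the 18 for Igfbp4, had the same factor in all 6 libraries. It therefore nearly repeats the main fit and adds no separate check. The Igfbp4 call was lost in 4 of 18 alternatives, each with 1 library left out, at 0.55 to 0.61. Over all 6 fits with 1 library left out it ranged from 0.55 to 0.78. It was not tested at a mean of at least 5 FPKM, which left 1 of the 8 genes called higher. Scaling to total reads called Igfbp3 higher (0.22, adjusted p = 0.0487), and limma-voom called Igfbp5 lower (-0.44, and -0.44 with genes of at least 10 reads added), 1 gene called lower in all. The added voom fit called Igf1 higher (1.41), and leaving out 1 library in it gave 1.11 to 1.66, with calls at 1.62 and 1.49 only. The causes of these changes were not tested.

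Over all genes, scaling to total reads gave 2334 called higher and 1094 lower and moved the median log2 fold change to 0.08. Without the filter 1003 were called higher and 1337 lower, at a mean of at least 5 FPKM 1026 and 1571, and leaving out 1 library gave 774 to 1379 and 1020 to 1834. Igf2r, not called, turned to 0.056 under scaling to total reads and ranged from -0.13 to 0.060 with 1 library left out, and Igfals ranged from -0.016 to 0.14. Ligands and receptors had 2 genes called lower at a mean of at least 5 FPKM, by voom and with the replicate block, and 1 to 2 with 1 library left out. Proteases had 4 called higher after scaling to total reads, 1 with either other pseudocount, without the filter or at a mean of at least 5 FPKM, and 1 to 3 with 1 library left out. At a mean of at least 5 FPKM that gene was Pappa2 (limma adjusted p = 0.0384), which the main fit did not call. Htra1 and Mmp2 were too low to be tested there. The IGFBP-related list had 0 called higher at a mean of at least 5 FPKM. Ctgf, Nov and Htra1 were all under that mean and so not tested, and the 0 is no check of their calls. Signalling genes had 0 called higher without the filter, and 0 to 2 called higher and 4 to 7 lower with 1 library left out. The growth hormone axis had 0 called lower after scaling to total reads, 3 by voom and 2 with the replicate block, and with 1 library left out 0 to 1 called higher and 0 to 2 lower.

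Samples of the same number correlated at 0.029, 0.038 and 0.018 in their deviations from group means, so the numbers were not taken to pair them. With the number as a replicate block, Igfbp7 (0.48, adjusted p = 0.0220) and Igfbp4 (0.63, adjusted p = 0.0301) stayed called, and 1148 genes were called higher and 1490 lower. Depth limits Igf1, Igfbp6, Igfbp2 and Igfbp1, and 3 samples per group limit every test.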
